A study of Mus musculus with 6 samples.

Results

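Rab GTPases are small membrane-bound switches that give each compartment of the secretory and endocytic system its identity. The family was taken as every gene of the deposited table whose symbol is Rab followed by a number, with at most a further letter and digit, and 58 of the 16179 genes in the table met that rule. The RNA came from microglia of the hippocampus of 10-month-old male mice of the strain B6.129S4(FVB)-Grntm1.1Far/Mmja, which lack progranulin, the product of Grn. BODIPY, a dye for neutral lipid, divided live CD11b+ CD45lo cells into a BODIPY-high fraction, rich in lipid droplets, and a BODIPY-low fraction, poor in them, with 3 libraries for each and hippocampi of 2 mice pooled for each library. Both groups carry the Grn deletion, no wild-type library was analysed here, and the comparison asks how lipid droplet-rich microglia differ from lipid droplet-low microglia within that genotype.

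A Rab protein bound to GTP sits on a membrane and recruits effectors such as tethers, motors and kinases. Guanine nucleotide exchange factors switch it on, GTPase-activating proteins switch it off, and GDP dissociation inhibitors carry the inactive, prenylated protein through the cytosol. In phagocytes, Rab5 marks the early phagosome, Rab7 replaces it as the phagosome turns into a phagolysosome, and Rab11, Rab4 and Rab35 return receptors to the surface. Rab18 is the Rab best known from the surface of lipid droplets, where Rab7, Rab8a, Rab10 and Rab32 have also been described.

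Each library held between 24982215 and 34899425 reads. All 11 microglial markers, among them Cx3cr1, P2ry12 and Tmem119, were detected, with 5.12% to 5.49% of reads in BODIPY-high and 5.68% to 6.38% in BODIPY-low libraries, and 2 of the 11 fell. Markers of choroid plexus and ependyma held 0.543% to 0.970% of reads in BODIPY-high and 0.0138% to 0.0661% in BODIPY-low libraries, and all 13 tested rose. Neutrophil markers held 7.39e-04% to 0.00816% of reads in BODIPY-high and 0.109% to 0.279% in BODIPY-low libraries, and 11 of 12 fell. Markers of monocytes held 0.00193% to 0.00496% in BODIPY-high and 0.0213% to 0.0423% in BODIPY-low libraries, and 2 of 5 tested fell. Border macrophage markers (1 of 8 rose) held 0.0581% to 0.0811% in BODIPY-high and 0.0599% to 0.0719% in BODIPY-low libraries. The next 4 lists were higher in every BODIPY-high library, with BODIPY-high ranges given first. They were oligodendrocytes (0.0214% to 0.0258% and 0.0163% to 0.0189%), astrocytes (0.0289% to 0.0363% and 0.026% to 0.0288%), endothelium (0.0072% to 0.00748% and 0.00523% to 0.00597%) and neurons (5.92e-04% to 7.53e-04% and 1.00e-04% to 1.44e-04%). Of these, 2 of 7 astrocyte, 1 of 8 endothelial and 2 of 5 neuronal markers rose. Of 6 oligodendrocyte markers limma called 0 (4 at an unadjusted p under 0.05), edgeR 1 and DESeq2 2. In bulk libraries, fewer cells of a type and less RNA per cell cannot be told apart.

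Between them, the 58 Rab genes took 0.433% ± 0.0296 of all reads in BODIPY-high and 0.418% ± 0.00205 in BODIPY-low libraries (mean ± SD, n = 3 per group). The two-sided exact permutation p was 0.6, where 0.1 is the smallest possible. Levels per length, with all annotated exons of a gene merged into its length, differed widely. Rab7, the late endosomal Rab, stood first at 3772 normalised reads per kb of exon in BODIPY-high and 3033 in BODIPY-low libraries, followed by Rab2a, a Rab of the endoplasmic reticulum to Golgi route, at 3381 in BODIPY-high and 2815 in BODIPY-low libraries. Rab8b, which serves transport to the cell surface, had 2562 in BODIPY-high and 2855 in BODIPY-low libraries, and Rab31, which acts between the trans-Golgi network and endosomes, had 2671 in BODIPY-high and 2559.9 in BODIPY-low libraries. The 5 highest, which add Rab1, held 43.0% of the summed level per kb and the 10 highest 66.9%. Before division by length, Rab8b (12820), Rab14 (10996) and Rab31 (9972) averaged above Rab7 (8880) over the 6 libraries. At the other end, 13 Rab genes averaged under 10 normalised reads over the 6 libraries and were not tested.

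**Figure D1:**
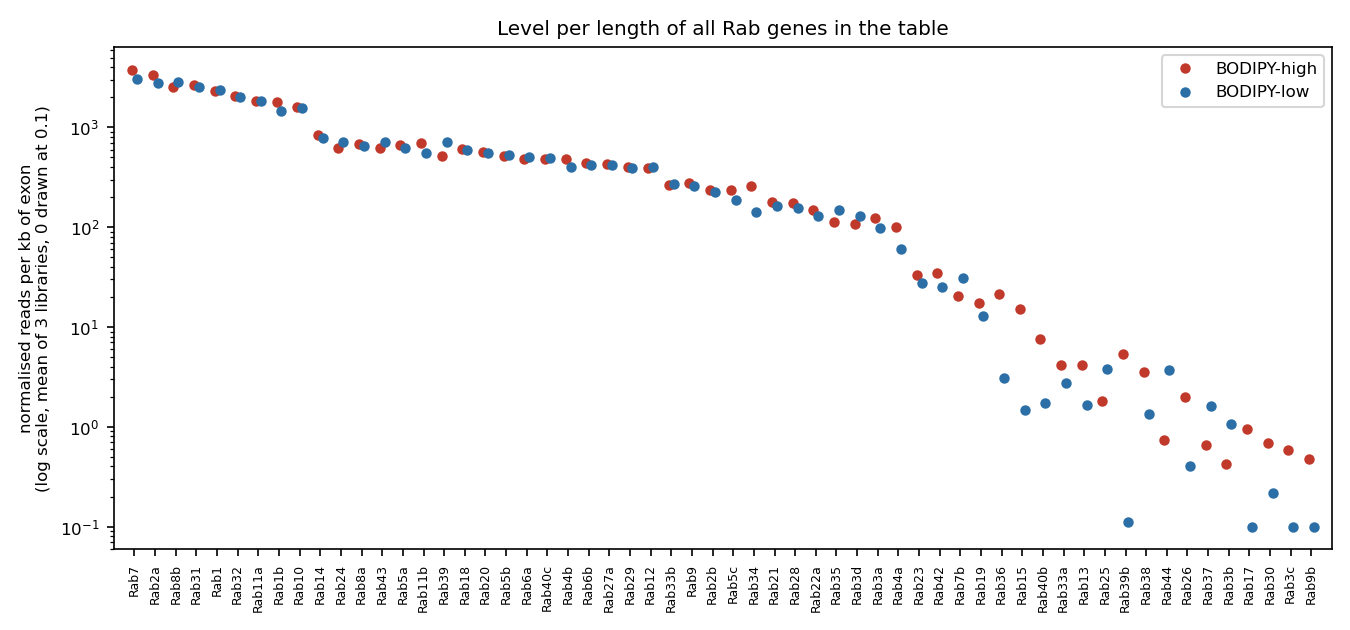
Mean level per length of the 58 Rab genes, as normalised reads per kb of exon on a log axis (0 drawn at 0.1), in BODIPY-high (red) and BODIPY-low (blue) libraries, 3 each, ordered by the mean of both groups. The groups lie close together among the highest genes, with Rab7 first at 3772 and 3033, and part mainly among the lowest genes.

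Of the 45 Rab genes tested with limma (two-sided, Benjamini-Hochberg adjustment over all 12821 tested genes, called at an adjusted p below 0.05), 6 rose and 1 fell in BODIPY-high libraries. The 6 were Rab7, Rab34, Rab11b, Rab15, Rab1b and Rab36, and the 1 that fell was Rab39. Among all tested genes, 9.79% rose and 3.52% fell, against 13.3% and 2.22% of the tested Rab genes, so the family's share of calls was near the background. The median log2 fold change was 0.082 for the tested Rab genes and -0.015 for all tested genes, and 26 of the 45 differed by less than 0.2 on the log2 scale. The groups parted without overlap, with BODIPY-high higher, in 10 of the 45 (22.2%, against 18.0% of all tested genes) and below them in 2 (4.44%, against 13.4%). Rab15, in both upward counts, averaged 6.80 in BODIPY-low libraries and reached the mean of 10 only through the BODIPY-high group. It could enter the test only by being high there. EdgeR called 5 higher and 1 lower (9.48% and 3.33% of all tested genes), and DESeq2 7 higher, with Rab2a added, and 1 lower (11.4% and 5.23%). At an unadjusted p under 0.05 stood 10 of the 45 and 27.1% of all tested genes. Without BODIPY-high replicate 3 only Rab34 rose, and 3 rose without BODIPY-low replicate 2 or without BODIPY-low replicate 3 (Rab15, Rab34 and Rab36 in each case). The number that fell was 0 without BODIPY-high replicate 3 or any 1 of the BODIPY-low replicates, and 2 without BODIPY-high replicate 1 (Rab39 and Rab8b) or replicate 2 (Rab35 and Rab44).

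**Figure D2:**
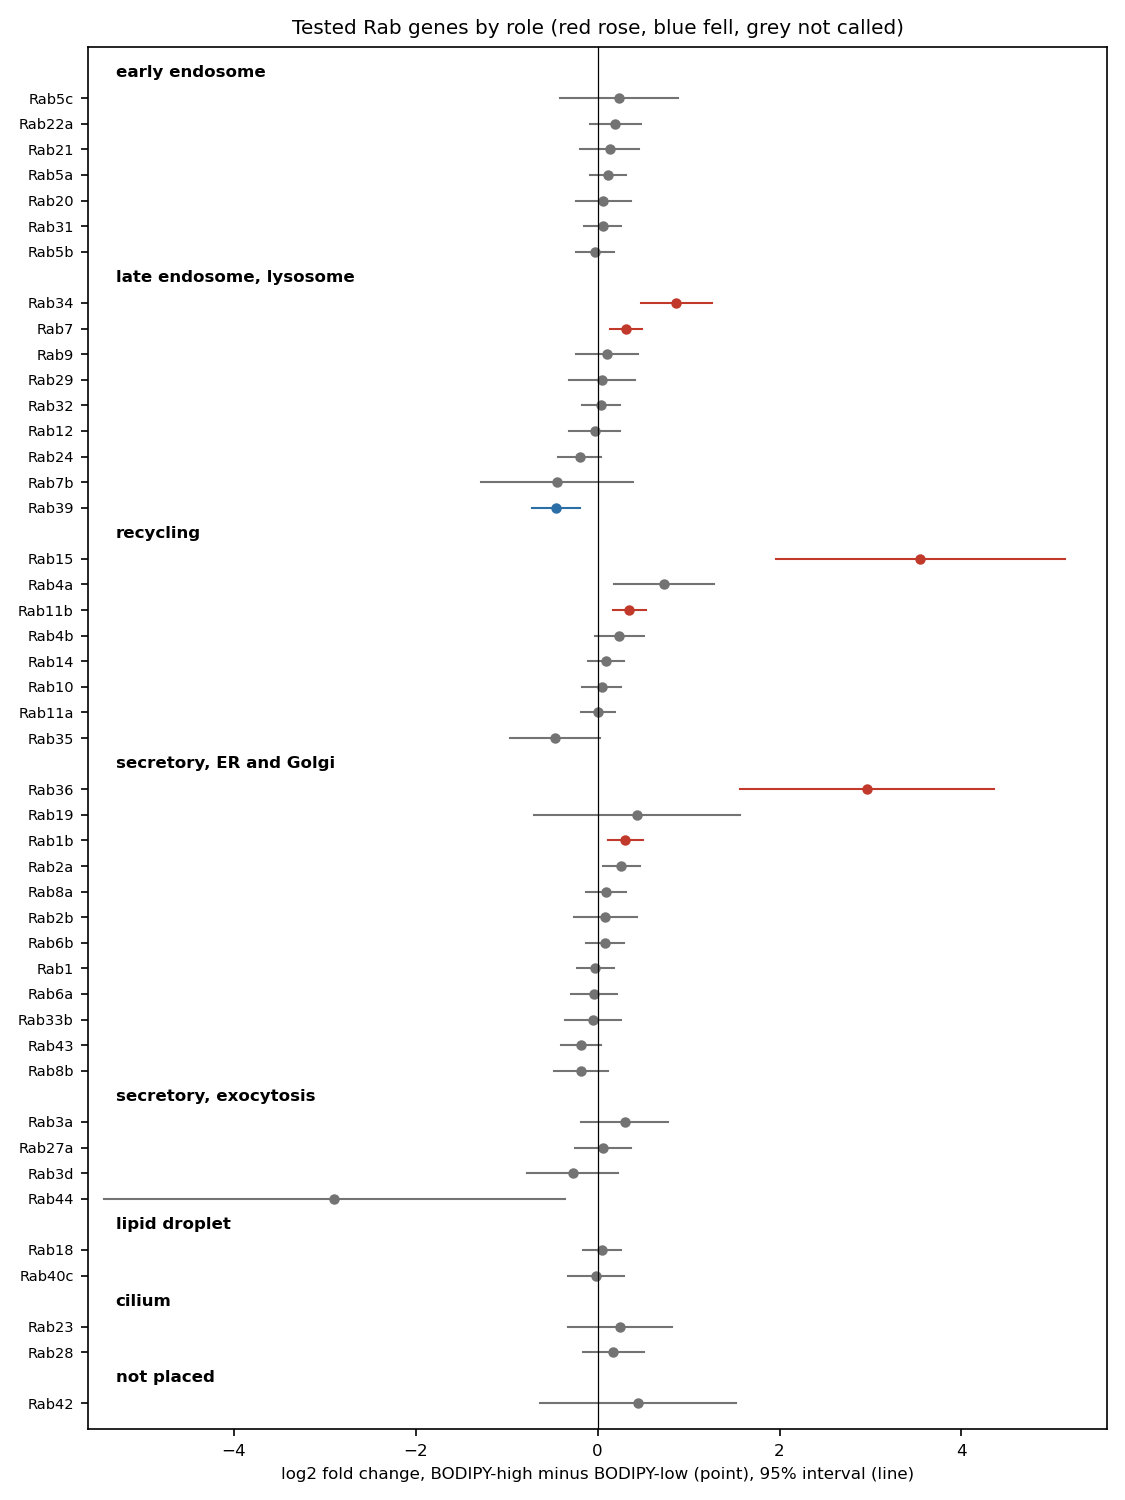
Log2 fold change (point, BODIPY-high minus BODIPY-low) with its 95% interval (line) for the 45 tested Rab genes, grouped by role, in red where the gene rose, blue where it fell and grey where it was not called. Most points lie within 0.2 of 0, and Rab15 (3.55) and Rab36 (2.96) lie far to the right.

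None of the 7 early endosome and phagosome Rabs passed the test. Limma, edgeR and DESeq2 each called 0 of them, against 13.3%, 12.8% and 16.6% of all tested genes in either direction. At an unadjusted p under 0.05 stood 0, against 27.1% of all tested genes. With 7 genes, these counts are not read as a difference from all genes. Their log2 fold changes lay between -0.032 and 0.24. Rab5a, the best studied early endosome Rab, had 3804, 3291 and 3449.8 normalised reads in replicates 1, 2 and 3 of the BODIPY-high group, against 3213, 3257 and 3263 in those of the BODIPY-low group. All later triplets keep that order of replicates. Its groups did not overlap, with BODIPY-high higher, but the test did not call the difference (log2 fold change 0.11, 95% interval -0.086 to 0.31, adjusted p = 0.472). Rab5b had 2158, 2283 and 2030.0 in BODIPY-high and 2187, 2232 and 2188 in BODIPY-low libraries, with overlapping groups. The third form, Rab5c, had 513, 754 and 283 in BODIPY-high and 401, 473 and 353 in BODIPY-low libraries (log2 fold change 0.24, interval -0.42 to 0.89). Relative to the mean, its spread in BODIPY-high libraries was the widest of the 3 forms, and in both groups replicate 2 was the highest and replicate 3 the lowest. The direction for Rab5c turned to -0.091 without BODIPY-high replicate 2.

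Rab31 had 11546, 9628 and 9376 normalised reads in BODIPY-high and 9907, 9699 and 9677 in BODIPY-low libraries, and its groups overlapped (log2 fold change 0.055, interval -0.15 to 0.26). Rab20, which takes part in phagosome maturation in macrophages, averaged 796 ± 57.4 in BODIPY-high and 764 ± 93.5 in BODIPY-low libraries (SD, n = 3 each). Rab21, known for endocytosis of integrins, averaged 897 ± 114 in BODIPY-high and 819 ± 114 in BODIPY-low libraries. Rab22a, which sorts cargo at early endosomes, averaged 1068 ± 137 in BODIPY-high and 929 ± 28.4 in BODIPY-low libraries. All 3 pairs of groups overlapped. Exons of Rab20 share 25.6% of their length with a noncoding gene on the other strand, and the library kits do not mark strand.

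There were 12 late endosome and lysosome Rabs, of which 9 were tested. Rab7 and Rab34 rose and Rab39 fell, that is 2 and 1 of 9, where 9.79% of all tested genes rose and 3.52% fell. Rab7 (GRCm38 chromosome 6, 87999106 to 88045270), which brings late endosomes, phagosomes and autophagosomes to fusion with lysosomes, had 10268, 9317 and 9951 normalised reads in BODIPY-high and 7671, 8279 and 7795 in BODIPY-low libraries. The groups did not overlap, and Rab7 rose 1.24-fold (log2 fold change 0.31, SE 0.080, adjusted p = 0.0250). Rab34 (chromosome 11, 78188430 to 78192193), which binds the effector Rilp and is also known from ciliogenesis, had 708, 596 and 548 in BODIPY-high and 309.9, 405 and 303 in BODIPY-low libraries. It rose 1.82-fold (log2 fold change 0.87, SE 0.18, adjusted p = 0.00824) and passed under every alternative tried, with adjusted p of at most 0.0414.

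Rab39 (chromosome 9, 53684110 to 53706232), described on phagosomes and late endosomes, had 1802, 1392 and 1453 normalised reads in BODIPY-high and 2267, 2019 and 2059 in BODIPY-low libraries. Every BODIPY-high library lay below every BODIPY-low one, and Rab39 fell by 0.46 on the log2 scale (SE 0.12, adjusted p = 0.0291). Of the 6 fits that each left out a library, Rab7 passed in 1, which lacked BODIPY-high replicate 2 (adjusted p = 0.0282, and between 0.0537 and 0.102 in the other fits). Rab39 likewise passed in 1, which lacked BODIPY-high replicate 1 (0.00923, and between 0.0673 and 0.109 in the other fits). Choroid plexus markers were higher and neutrophil markers lower in the same BODIPY-high libraries, and their part in the changes of Rab7, Rab34 and Rab39 was not tested.

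The other tested late Rabs were not called. Rab32, which serves lysosome-related organelles, had 5058, 4680.0 and 4623 normalised reads in BODIPY-high and 5105, 4208 and 4713 in BODIPY-low libraries (log2 fold change 0.037, interval -0.17 to 0.25). Rab24, linked to autophagy, was below every BODIPY-low value in all 3 BODIPY-high libraries, at 1252, 1293 and 1229 against 1515, 1494 and 1329.7 (log2 fold change -0.20, interval -0.43 to 0.036, adjusted p = 0.267). Exons of Rab24 share 62.4% of their length with Prelid1 on the other strand, so its reads cannot be assigned with certainty. Rab12, Rab29 and Rab9 had log2 fold changes of -0.032, 0.044 and 0.11. Rab7b, a separate gene that acts between late endosomes and the Golgi, was low and variable, with 93.3, 80.4 and 111 in BODIPY-high and 72.0, 137 and 215 in BODIPY-low libraries.

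Among recycling Rabs 2 of 8 tested rose, against 9.79% of all tested genes, and none fell. In 4 of the 8, against 18.0% of all tested genes, the groups did not overlap and BODIPY-high lay above. Rab15 is in both counts and passed the filter on low values only through the BODIPY-high group. Neither count is therefore support for a direction of these Rabs. Rab11b (chromosome 17, 33742484 to 33760530), a recycling endosome Rab, had 4222, 4446 and 4278 normalised reads in BODIPY-high and 3409.7, 3378 and 3391 in BODIPY-low libraries. The BODIPY-low values lay within a narrow band and every BODIPY-high value lay above it, and Rab11b rose 1.27-fold (log2 fold change 0.35, SE 0.082, adjusted p = 0.0172). Its paralogue Rab11a, which shares that role, had 5738, 5119 and 5485 in BODIPY-high and 5499, 5237 and 5583 in BODIPY-low libraries. These groups overlapped, with a 95% interval of -0.18 to 0.19 for the log2 fold change. Choroid plexus markers were higher and neutrophil markers lower in the same BODIPY-high libraries, and their part in the rise of Rab11b was not tested. The call of Rab11b was lost without BODIPY-high replicate 3, BODIPY-low replicate 2 or BODIPY-low replicate 3 (adjusted p = 0.0667, 0.0721 and 0.0713, and between 0.0263 and 0.0721 over the 6 libraries left out in turn).

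**Figure D3:**
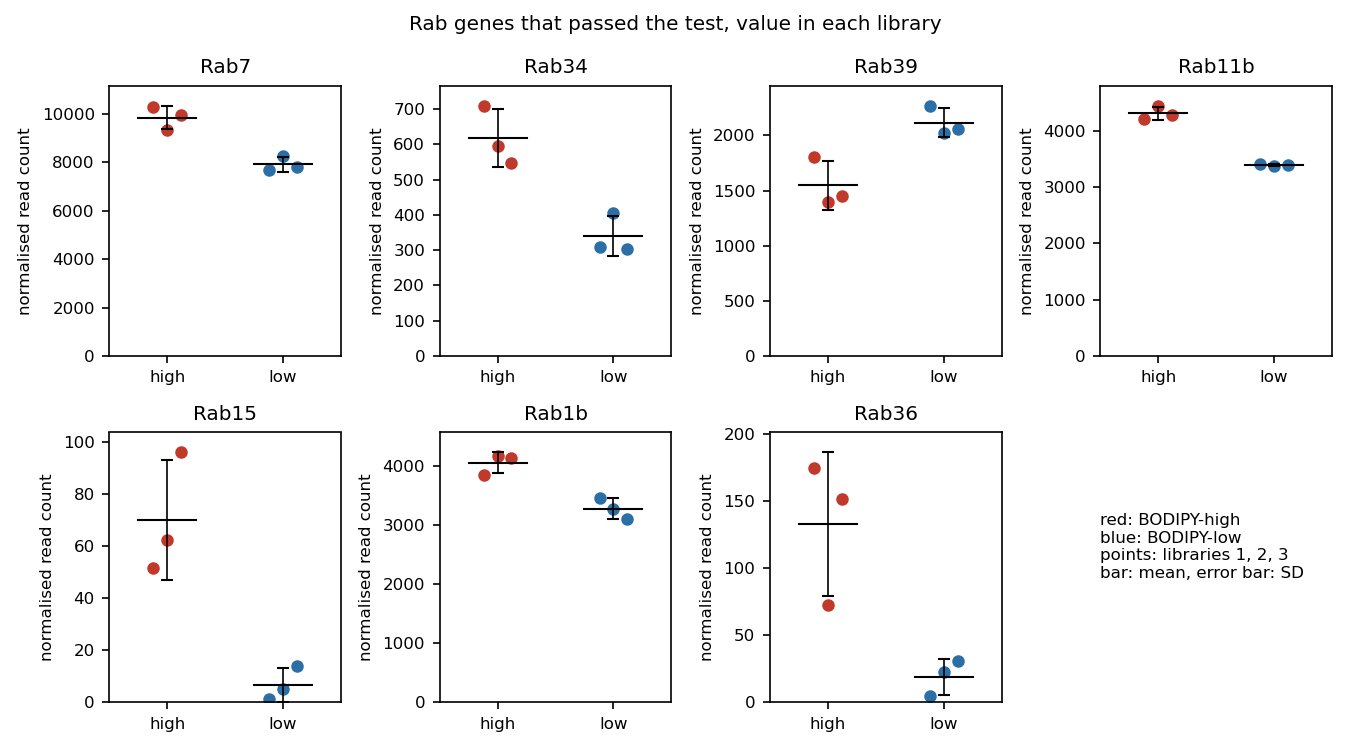
Normalised read counts of the 7 Rab genes that passed the test, with 1 point per library (replicates 1, 2 and 3 from left to right), the mean (bar) and the SD (error bar), BODIPY-high left of BODIPY-low. The groups do not overlap in any of the 7, and Rab39 is the 1 in which BODIPY-high lies lower.

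The sequences before the start sites of Rab11b and Rab11a are shown because the paralogues parted in these libraries. Each is the 250 bases before the start site in the RefSeq annotation of GRCm38.p6, given 5′ to 3′ on the strand of the gene, and capitals mark each of the motifs searched (CACGTG, its extended form TCACGTGA, GAGGAAGT, CCGGAAGT and TGACGTCA, and the X-box of RFX factors, on both strands, the first lying within the second). The windows are chr17:33760487-33760736 (minus strand) for Rab11b and chr9:64737757-64738006 (minus strand) for Rab11a.
Rab11b: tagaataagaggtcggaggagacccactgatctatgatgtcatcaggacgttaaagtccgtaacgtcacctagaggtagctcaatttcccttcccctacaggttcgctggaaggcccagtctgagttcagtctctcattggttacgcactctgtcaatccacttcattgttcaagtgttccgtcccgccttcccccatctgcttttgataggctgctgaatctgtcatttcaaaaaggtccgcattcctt
Rab11a: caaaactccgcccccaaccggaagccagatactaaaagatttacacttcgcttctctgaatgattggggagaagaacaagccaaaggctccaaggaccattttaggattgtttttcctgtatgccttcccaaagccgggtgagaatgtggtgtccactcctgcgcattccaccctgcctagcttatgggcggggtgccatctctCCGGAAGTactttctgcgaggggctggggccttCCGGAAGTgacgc
Rab11a held CCGGAAGT, a letter string bound by ETS family factors, at 2 places, and Rab11b held none of the motifs. CCGGAAGT was present in 2 of 48 Rab windows (Rab11a and Rab24, 4.17%) and in 2.92% of 27025 windows of all genes. TCACGTGA, the core of the element through which TFEB acts on lysosomal genes, was present in 2 of 48 Rab windows (Rab5a and Rab21, 4.17%). It was present in 0.803% of all windows and in none of the 6 called Rab genes with a window (Rab36 has none). Rab windows also held more CG pairs (median 16, against 6 for all genes). The 27025 windows take in genes outside the 16179 of the deposited data, so they are an unlike set to the Rab windows. Neither these shares nor a link of a motif to the values was tested.

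Of the Rab5a window (chr17:53478984-53479233, plus strand), shown because it held the most matches, the capitals mark CACGTG, TCACGTGA and TGACGTCA from left to right, although Rab5a itself was not called.
Rab5a: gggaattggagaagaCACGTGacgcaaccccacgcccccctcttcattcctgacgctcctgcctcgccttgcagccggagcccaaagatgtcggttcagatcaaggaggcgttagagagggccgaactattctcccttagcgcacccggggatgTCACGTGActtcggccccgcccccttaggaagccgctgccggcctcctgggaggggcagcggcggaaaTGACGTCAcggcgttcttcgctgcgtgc
GAGGAAGT, a form of the PU.1 site, was found in the windows of Rab2b and Rab32 (4.17% of Rab windows and 2.42% of all). CACGTG was found in Rab5a, Rab20, Rab21 and Rab23 (8.33% against 6.04%) and TGACGTCA in Rab5a and Rab25 (4.17% against 1.60%). The X-box was found in no Rab window and in 0.366% of all. Windows of the Rab genes held a median of 16 CG pairs and those of all genes, read in these libraries or not, a median of 6. No window was at hand for Rab18, Rab26, Rab2a, Rab30, Rab36, Rab37, Rab38, Rab44, Rab4a and Rab7b.

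Rab15 (chromosome 12, 76797960 to 76822908), an endosomal recycling Rab best known from neurons, had 51.8, 62.3 and 96.1 normalised reads in BODIPY-high and 1.14, 5.33 and 13.9 in BODIPY-low libraries. It rose 11.7-fold (log2 fold change 3.55, SE 0.72, adjusted p = 0.00829), and it passed the filter on low values only through the BODIPY-high group. Its level per length was 15.2 reads per kb in BODIPY-high and 1.47 in BODIPY-low libraries, far below that of Rab11b at 704 and 553. The median log2 fold change was 4.69 for markers of choroid plexus and ependyma (all 13 tested rose) and 2.50 for neuronal markers (2 of 5 rose), and their part in the rise of Rab15 was not tested. The call was lost without BODIPY-high replicate 3 (adjusted p = 0.0546, between 0.00535 and 0.0546 over the libraries left out in turn).

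Rab4a and Rab4b, which serve the fast return of receptors from early endosomes, were both higher in all BODIPY-high libraries but did not pass. Rab4a had 174, 173 and 178 normalised reads in BODIPY-high and 113, 83.1 and 124 in BODIPY-low libraries (log2 fold change 0.73, SE 0.25, adjusted p = 0.0822). Rab4b had 857, 985 and 977 in BODIPY-high and 806, 808 and 769 in BODIPY-low libraries (0.24, adjusted p = 0.233), and 65.0% of its exon length is shared with the annotated gene Gm21983 on the same strand. Rab14, found on early and recycling endosomes, had 12719, 10417 and 10907 in BODIPY-high and 10489.9, 10712 and 10733 in BODIPY-low libraries (0.087, interval -0.11 to 0.28). Rab35, which acts in recycling at the plasma membrane, had 248, 442 and 253 in BODIPY-high and 422, 433 and 405 in BODIPY-low libraries. BODIPY-high replicates 1 and 3 lay well below the BODIPY-low group and replicate 2 above it, and Rab35 was called without BODIPY-high replicate 2 only (log2 fold change -0.47, adjusted p = 0.212 with all libraries).

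Secretory Rabs of the endoplasmic reticulum and Golgi numbered 14, of which 12 were tested and 2 rose, where 9.79% of all tested genes rose. Rab1b (chromosome 19, 5099205 to 5107072), which controls transport out of the endoplasmic reticulum, had 3852, 4175 and 4135 normalised reads in BODIPY-high and 3460.0, 3275 and 3109 in BODIPY-low libraries. It rose 1.24-fold (log2 fold change 0.31, SE 0.088, adjusted p = 0.0431), close to the threshold. Choroid plexus markers were higher and neutrophil markers lower in the same BODIPY-high libraries, and their part in the rise of Rab1b was not tested. The call was lost with edgeR, with TMM scaling and with a filter at a mean of 50 (adjusted p = 0.0521, 0.0506 and 0.0516). It was also lost without BODIPY-high replicate 2 or 3 or BODIPY-low replicate 2 or 3 (between 0.101 and 0.178). Its paralogue Rab1, now named Rab1a, had 9498, 8263 and 8531 in BODIPY-high and 9761, 8482 and 8546 in BODIPY-low libraries (log2 fold change -0.027, interval -0.23 to 0.17).

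Rab36 (chromosome 10, 75037058 to 75054748), placed here by its Golgi location and also able to bind Rilp, had 174, 72.5 and 151 normalised reads in BODIPY-high and 4.57, 22.4 and 30.6 in BODIPY-low libraries. It rose 7.80-fold (log2 fold change 2.96, SE 0.63, adjusted p = 0.0110), at 21.5 reads per kb in BODIPY-high and 3.11 in BODIPY-low libraries. Markers of choroid plexus and ependyma held 0.897%, 0.543% and 0.970% of reads in BODIPY-high and 0.0661%, 0.0138% and 0.0267% in BODIPY-low libraries. Replicate 2 was lowest for both the markers and Rab36 among BODIPY-high libraries, while among BODIPY-low libraries replicate 1 was highest for the markers and lowest for Rab36. The part of these markers in the rise of Rab36 was not tested. The call was lost without BODIPY-high replicate 3 (adjusted p = 0.0546, between 0.0112 and 0.0546 over the libraries left out in turn).

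Rab8b, with 15327, 9938 and 11114 normalised reads in BODIPY-high and 13902, 13377 and 13266 in BODIPY-low libraries, had the highest raw level of the secretory Rabs and a wide spread in BODIPY-high libraries (log2 fold change -0.18, adjusted p = 0.435). It was called lower without BODIPY-high replicate 1 (adjusted p = 0.0243, and between 0.0243 and 0.849 over the libraries left out in turn). Rab8a, which directs exocytosis and the fusion of lipid droplets, had 3309.7, 3128 and 3236 in BODIPY-high and 3378, 2914 and 2806 in BODIPY-low libraries (0.093, interval -0.12 to 0.31). Rab2a, named here after its values were seen, was higher in every BODIPY-high library, at 7825, 6557 and 7252 against 6382, 5846 and 5786, but did not pass with limma (0.26, adjusted p = 0.0883). The remaining 6 tested, Rab2b, Rab6a, Rab6b, Rab19, Rab33b and Rab43, had log2 fold changes between -0.18 and 0.44. Exons of Rab43 share 75.4% of their length with Gm45140 on the same strand and those of Rab2b 59.3% with Gm43766 on the other.

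No Rab of regulated exocytosis passed the test. There were 8, of which 4 were tested. Limma, edgeR and DESeq2 called 0, against 13.3%, 12.8% and 16.6% of all tested genes in either direction. At an unadjusted p under 0.05 stood 1, against 27.1% of all tested genes. Rab27a, which docks secretory lysosomes and other granules, had 1944, 1513 and 1572 normalised reads in BODIPY-high and 1906, 1422 and 1511 in BODIPY-low libraries, so the library number separated the values more than the group did. Rab3d, a granule Rab, had 597, 394 and 358 in BODIPY-high and 630.0, 579 and 410.1 in BODIPY-low libraries, and Rab3a, the synaptic vesicle form, had 217, 329.6 and 272 in BODIPY-high and 254, 207 and 199.5 in BODIPY-low libraries. Rab44, a large Rab known from granules of bone marrow-derived cells, had 0, 11.3 and 0 in BODIPY-high and 33.2, 9.59 and 12.99 in BODIPY-low libraries (log2 fold change -2.89, SE 1.15, adjusted p = 0.130), the groups overlapped, and it passed the filter on low values only through the BODIPY-low group. Neutrophil markers (11 of 12 fell) held 0.00179%, 0.00816% and 7.39e-04% of reads in BODIPY-high and 0.279%, 0.109% and 0.111% in BODIPY-low libraries. Among BODIPY-high libraries replicate 2 was highest for both Rab44 and these markers, and among BODIPY-low libraries replicate 1 was highest for both. BODIPY-high replicate 2 had 10 reads of Rab44 and BODIPY-low replicate 2 had 9, whereas the groups did not overlap for these markers. Their part in the values of Rab44 was not tested.

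**Figure D4:**
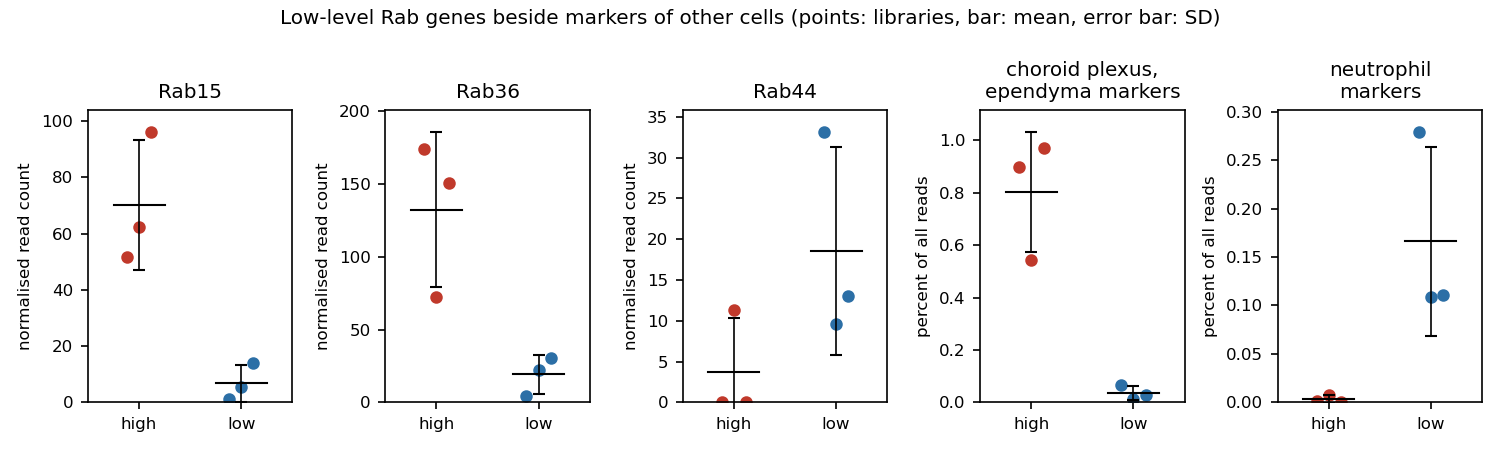
Normalised read counts of Rab15, Rab36 and Rab44, and the percent of all reads in the marker lists for choroid plexus with ependyma and for neutrophils, with 1 point per library (replicates 1, 2 and 3 from left to right), the mean (bar) and the SD (error bar), BODIPY-high left of BODIPY-low. Choroid plexus markers lie at 0.543% or more in BODIPY-high libraries, and BODIPY-low replicate 1 has the highest value of Rab44 and of the neutrophil markers. Among BODIPY-high libraries replicate 2 has the highest value of Rab44 and of the neutrophil markers, and the groups overlap for Rab44 only.

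Neither Rab assigned to the lipid droplet passed the test in these cells sorted by lipid content. Rab18 (chromosome 18, 6733905 to 6794429), which sits on droplets and on the endoplasmic reticulum beside them, had 4615, 3792 and 4193 normalised reads in BODIPY-high and 4066, 3925 and 4197 in BODIPY-low libraries. The groups overlapped, and the log2 fold change of 0.044 had a 95% interval of -0.17 to 0.25. Rab40c, which carries a SOCS box and has been found on droplets, had 1348, 1470.2 and 1641 in BODIPY-high and 1243, 1741 and 1552 in BODIPY-low libraries (log2 fold change -0.015, interval -0.32 to 0.29). Limma, edgeR and DESeq2 called 0 of these 2, against 13.3%, 12.8% and 16.6% of all tested genes in either direction. Neither had an unadjusted p under 0.05, against 27.1% of all tested genes. In the wider set of 8 Rabs also described at droplets (Rab18, Rab40c, Rab7, Rab8a, Rab10, Rab32, Rab1b and Rab5a) 2 rose, Rab7 and Rab1b. Among all tested genes 9.79% rose. The median log2 fold change of the 8 was 0.069. DESeq2 called 2 of the 8 and edgeR 1, with Rab1b lost (adjusted p = 0.0521). Of the 6 fits that each left out a library, Rab7 passed in 1 and Rab1b in 2. Rab10, which acts in surface delivery and in the autophagy of droplets, had 6237, 4975 and 5819.9 in BODIPY-high and 5622, 5567 and 5246 in BODIPY-low libraries (0.046, interval -0.17 to 0.26).

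Rab23, a regulator of Hedgehog signalling at the cilium, had 369, 191 and 270.1 normalised reads in BODIPY-high and 259.6, 235 and 187 in BODIPY-low libraries, and Rab28, also a cilium Rab, had 758, 718 and 919 in BODIPY-high and 814, 697 and 617 in BODIPY-low libraries. Both pairs of groups overlapped, and neither gene was called (adjusted p = 0.592 and 0.524). Rab42, which was given no role here, had 28.3, 24.9 and 25.4 in BODIPY-high and 25.2, 17.0 and 15.8 in BODIPY-low libraries. Of the Rabs that the kinase Lrrk2 phosphorylates, 9 were tested (median log2 fold change -0.032). Limma, edgeR and DESeq2 called 0 of the 9, against 13.3%, 12.8% and 16.6% of all tested genes in either direction. At an unadjusted p under 0.05 stood 0, against 27.1% of all tested genes. With 9 genes, these counts are not read as a difference from all genes.

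The 13 Rab genes below the filter were Rab39b, Rab38, Rab9b, Rab40b, Rab13, Rab25, Rab17, Rab30, Rab33a, Rab37, Rab3c, Rab26 and Rab3b. Rab39b, a neuronal Rab, had 43, 2 and 15 reads in BODIPY-high and 1, 0 and 0 reads in BODIPY-low libraries, uneven within BODIPY-high libraries. Rab3c, a synaptic vesicle Rab, had 0, 4 and 21 reads in BODIPY-high libraries and no read in BODIPY-low libraries, where a count of 0 allows up to 3 reads in each. Rab40b had 23, 4 and 24 reads in BODIPY-high and 1, 6 and 3 in BODIPY-low libraries. Rab17 and Rab25, Rabs of epithelial cells, had at most 8 reads in any BODIPY-high library and at most 10 in any BODIPY-low library. No fold is given for these genes at such depth.

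Within families of paralogues, the balance of forms was set by comparing levels per length inside each library, which does not depend on the size factor. Rab11b made up 26.4%, 29.8% and 27.6% of the Rab11 level in BODIPY-high and 23.2%, 23.9% and 22.9% in BODIPY-low libraries. Rab1b made up 40.4%, 45.8% and 44.8% of the Rab1 level in BODIPY-high and 37.2%, 39.2% and 37.8% in BODIPY-low libraries. Both shares lay higher in every BODIPY-high library. Rab4a held 18.6%, 16.5% and 17.0% of the Rab4 level in BODIPY-high and 13.6%, 10.3% and 15.3% in BODIPY-low libraries, again without overlap.

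The share of Rab5b went the other way, with 34.9%, 36.0% and 38.1% of the Rab5 level in BODIPY-high and 39.6%, 38.9% and 40.0% in BODIPY-low libraries. A share also depends on the other forms, and the values of Rab5b itself overlapped between groups (log2 fold change -0.032). For these 4 shares the exact two-sided permutation p was 0.1, the smallest possible with 3 against 3 libraries (0.225 after Benjamini-Hochberg adjustment over 9 shares), so none could pass. The other 5 shares overlapped between groups. They were Rab5a (47.4% ± 5.40 and 46.4% ± 1.16) and Rab5c (16.3% ± 6.29 and 14.0% ± 1.72) of Rab5, Rab8b of Rab8 (78.4% ± 3.27 and 81.5% ± 1.11), Rab6b of Rab6 (47.8% ± 2.11 and 45.6% ± 2.26) and Rab3a of Rab3 (53.3% ± 11.03 and 43.5% ± 3.47), each as the mean and SD of 3 BODIPY-high libraries and then of 3 BODIPY-low ones.

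**Figure D5:**
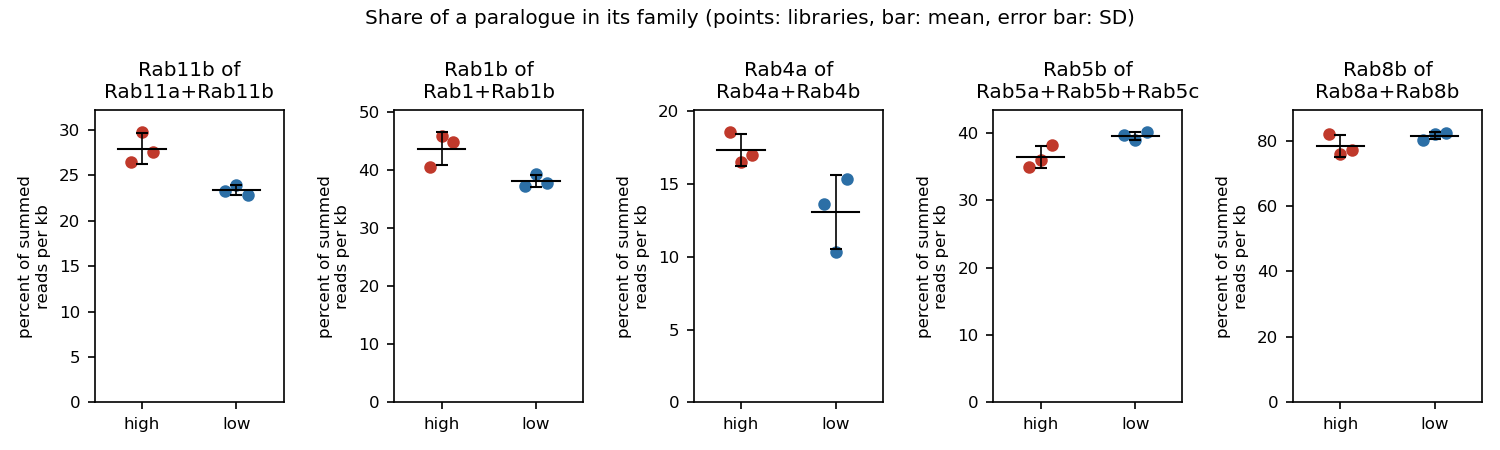
Share of 1 paralogue in the summed normalised reads per kb of its family, in percent, with 1 point per library (replicates 1, 2 and 3 from left to right), the mean (bar) and the SD (error bar), BODIPY-high left of BODIPY-low. Rab11b, Rab1b and Rab4a lie higher in every BODIPY-high library, Rab5b lies lower, and Rab8b overlaps.

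Few of the genes that load, switch and read Rabs were called. Of 148 listed regulators and effectors 132 were tested, 6 rose (4.55%, against 9.79% of all tested genes) and 1 fell (0.758%, against 3.52%), and the median log2 fold change was -0.026. None of the 10 genes of prenylation and GDP dissociation was called (0 by limma, edgeR and DESeq2, 2 at an unadjusted p under 0.05). The shares of all tested genes were 13.3%, 12.8% and 16.6% in either direction, and 27.1% at an unadjusted p under 0.05. Gdi2, the main GDP dissociation inhibitor outside neurons, had 18469.7, 19158 and 19321 normalised reads in BODIPY-high and 16889.7, 19037 and 18638 in BODIPY-low libraries (log2 fold change 0.063, interval -0.11 to 0.24). Without BODIPY-high replicate 3 the rises numbered 3.

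Of 49 tested effectors and kinases 3 rose (6.12%, against 9.79% of all tested genes) and 1 fell (2.04%, against 3.52%). In either direction, edgeR called 5 of the 49 and DESeq2 9 (12.8% and 16.6% of all tested genes). Rilp, which links Rab7 and Rab34 to the dynein motor, had 104, 87.2 and 90.6 normalised reads in BODIPY-high and 42.3, 37.3 and 23.2 in BODIPY-low libraries (log2 fold change 1.47, SE 0.36, adjusted p = 0.0216). The groups were far apart, although the call was lost without BODIPY-high replicate 1 or 3 or BODIPY-low replicate 2 or 3 (adjusted p between 0.0506 and 0.0833). Sytl2, a Rab27 effector in secretion, had 54.6, 74.8 and 215 in BODIPY-high and 6.86, 4.26 and 6.50 in BODIPY-low libraries (3.84, SE 0.59, adjusted p = 0.00172). Bicd1, a Rab6 effector that recruits dynein, had 82.0, 52.1 and 104 in BODIPY-high and 4.57, 7.46 and 5.57 in BODIPY-low libraries (3.52, SE 0.52, adjusted p = 0.00133). Sytl2 and Bicd1, like Rab15, passed the filter on low values only through the BODIPY-high group, each averaging 5.87 in BODIPY-low libraries, so they could enter the test only by being high there, and the count of 3 is no support for a direction of the list. Plekhm3 fell, with 1139, 1608 and 1406 in BODIPY-high and 1811, 1839 and 2244 in BODIPY-low libraries (-0.51, SE 0.14, adjusted p = 0.0371), and it was called with 1 library left out only without BODIPY-high replicate 2 or BODIPY-low replicate 1.

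Among 34 tested GTPase-activating proteins 2 rose (5.88%, against 9.79% of all tested genes) and none fell. Tbc1d2, which inactivates Rab7, had 245, 283 and 467 normalised reads in BODIPY-high and 25.2, 26.6 and 59.4 in BODIPY-low libraries (log2 fold change 3.18, SE 0.38, adjusted p = 3.65e-04), and the call held under all 15 alternatives. Rabgap1l had 388, 338 and 445 in BODIPY-high and 238, 209 and 219 in BODIPY-low libraries (0.80, SE 0.18, adjusted p = 0.0147), with the call lost without BODIPY-high replicate 3 or BODIPY-low replicate 2 or 3 (between 0.0562 and 0.0711). Of 39 tested exchange factors edgeR called 0 and DESeq2 4 in either direction (12.8% and 16.6% of all tested genes). With limma 1 rose (2.56%, against 9.79% of all tested genes), Trappc3, a subunit of the TRAPP complexes that activate Rab1. It had 1499.9, 1820.1 and 1563 in BODIPY-high and 1361, 1059 and 1171 in BODIPY-low libraries (0.45, SE 0.13, adjusted p = 0.0422) and was not called by edgeR (0.0537) or without replicate 2 or 3 of either group (between 0.0969 and 0.174). Mon1a, Mon1b and Ccz1, which together activate Rab7, had log2 fold changes of -0.0049, -0.0026 and -0.057. Choroid plexus markers were higher in the same BODIPY-high libraries (median log2 fold change 4.69), and their part in the rises of Rilp, Sytl2, Bicd1, Tbc1d2, Rabgap1l and Trappc3 was not tested.

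A further 3 effectors had large differences that did not pass with limma and are named after their values were seen. Myo5b, a motor for Rab11 vesicles, had 231, 250.3 and 365 normalised reads in BODIPY-high and 69.7, 0 and 63.1 in BODIPY-low libraries (adjusted p = 0.0587). Lrrk2 had 191, 66.8 and 139.8 in BODIPY-high and 53.7, 2.13 and 40.8 in BODIPY-low libraries (0.0809), and Rab11fip1, a Rab11 effector, had 115, 30.6 and 165 in BODIPY-high and 46.9, 9.59 and 18.6 in BODIPY-low libraries (0.0864). In each of them BODIPY-low replicate 2 was the lowest library, as it was for the markers of choroid plexus and ependyma, which held 0.0138% of its reads. Among BODIPY-high libraries these markers were lowest in replicate 2 (0.543%) and highest in replicate 3 (0.970%). Rab11fip1 had the same order at both ends, whereas Myo5b was lowest in replicate 1 and Lrrk2 highest in replicate 1. All 13 of those markers tested rose, and their part in the differences of these 3 genes was not tested.

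Libraries within a group also differed in their Rab levels. Of the 45 tested Rab genes 24 (53.3%) were highest in replicate 1 among the BODIPY-high libraries, against 34.5% of all tested genes, and 22 (48.9%) were lowest in replicate 2, against 36.2%. Among BODIPY-low libraries 20 (44.4%) were highest in replicate 1, against 40.0% of all tested genes, and 20 (44.4%) were lowest in replicate 3, against 30.3%. The median SD on the log2 scale was 0.16 for tested Rab genes in BODIPY-high and 0.14 in BODIPY-low libraries, and for all tested genes 0.21 in BODIPY-high and 0.18 in BODIPY-low libraries.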

How the data were processed

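The series' design text and the submitters' processing notes record a quality check with FastQC 0.11.4, mapping with STAR 2.5.3a to mm10 (mm9 is listed too), gene counts by STAR and a comparison with DESeq2. Which annotation and strand column were used is not given in the sources used here. The deposited table holds a signal, read counts that the authors scaled with a size factor for each library. Dividing out the step gave whole reads (100% of values within 0.01 read of a whole number).

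A gene was tested if it averaged 10 or more in the 6 libraries. The test was limma 3.58.1 in R 4.3.3 on log2(value + 1), two-sided, with a variance trend and no block. Fold changes and their intervals are on that scale, which understates low genes. As alternatives, edgeR 4.0.16 (quasi-likelihood, TMM) and DESeq2 1.42.0 were run on recovered reads: they called 1642 and 2132 of all tested genes, and DESeq2 gave no adjusted p for 5 genes. Others changed the pseudocount, filter, scaling or variance, added a replicate block or left out a library. The procedure was tested on simulated data. Shares used exact permutation tests. Coordinates and exon lengths come from GENCODE M21 (GRCm38), which matched 57 Rab genes by symbol and 1 by synonym.

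The members and lists were chosen with earlier results of these data known. Named in full were all called Rab genes, the 2 highest tested of each role, 9 chosen by role, and all called regulators and effectors. Nothing in the labels says which mice went into which library or whether libraries of equal number share mice, so a p-value here covers the spread between libraries, which may be technical. The bound for a count of 0 covers counting error only.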

Additional observations from a re-analysis of the deposited data

How the results depend on the processing

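Under the 9 settings that used all libraries, between 4 Rab genes (filter at a mean of 50) and 7 (DESeq2) rose, and 1, Rab39, fell in each. With 1 library left out, the number that rose lay between 1 and 6 and the number that fell between 0 and 2. Regulators and effectors that rose numbered between 3 and 9 with 1 library left out, and those that fell between 0 and 2. With DESeq2 and with the replicate block 6 regulators and effectors fell, against 1, and the cause was not tested. The replicate block gave 7 Rab genes that rose and 1 that fell. It added Rab2a and ended no call, but samples that share a number deviated together with correlations of 0.110, 0.144 and 0.0728, and the last is under 0.1, so the numbers were not taken as pairs, although every library correlated best with its own number.

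Small differences turned sign when 1 library was left out. The log2 fold change lay between -0.039 and 0.11 for Rab31, -0.036 and 0.10 for Rab32, -0.027 and 0.12 for Rab18, -0.15 and 0.093 for Rab40c, -0.025 and 0.14 for Rab10, -0.086 and 0.039 for Rab1, -0.053 and 0.18 for Rab27a, -0.074 and 0.011 for Rab5b, and -0.091 and 0.61 for Rab5c. The difference in share lay between -1.22 and 3.97 percentage points for Rab5a and between -0.976 and 5.31 for Rab5c. TMM scaling moved the median of all genes by -0.011 on the log2 scale. Rab genes with few reads, such as Rab15 in BODIPY-low libraries, are the least precisely measured.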
